A study of Mus musculus with 20 samples.

Results

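The genes described here encode the proteins of the mitochondrial ribosome. They were chosen by symbol alone, as every row of the count table whose name is Mrpl or Mrps followed by a number and at most 1 letter, and 78 of 32245 gene symbols met this rule. Of these, 51 belong to the large subunit, 26 to the small subunit, and Mrps36 encodes a protein now placed in the alpha-ketoglutarate dehydrogenase complex rather than in the ribosome. Mrps30 and Mrps18a carry small-subunit names but are counted with the large subunit, where their proteins sit.

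The study followed hippocampal granule cells of the mouse through the first postnatal weeks with RiboTag, in which Cre recombinase switches on an HA-tagged copy of the ribosomal protein RPL22, so that ribosomes of the Cre-expressing cells and the mRNA bound to them can be pulled down with an anti-HA antibody. All 20 libraries come from hippocampi of Rbp4-Cre:RiboTag mice, with 5 libraries at postnatal day (P) 5 and 3 each at P7, P10, P15, P21 and P28. Every group therefore shares the driver and the tagged ribosome, the cells are whatever cells expressed Rbp4-Cre in the hippocampus at each age, and unselected hippocampal RNA was not analysed here. The labels give a batch for each library, called A, B and C here. Batch A holds 3 of the P5 libraries with P10 and P15, batch B the other 2 P5 libraries with P7, and batch C holds P21 and P28. Differences between P21 or P28 and an earlier age and differences between batches cannot be told apart. No label states that replicate libraries stem from separate animals, and p-values therefore measure only the spread between libraries, which may be partly technical.

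Mitochondria keep their own ribosome, which translates the few membrane subunits of the respiratory chain and ATP synthase that mitochondrial DNA encodes. All of its proteins are encoded in the nucleus, made on cytosolic ribosomes and imported, and they assemble on mitochondrial ribosomal RNA. Some descend from proteins of the bacterial ribosome and others were added in the evolution of mitochondria. Because the pulldown takes cytosolic ribosomes, the values below are levels of Mrpl and Mrps mRNA in pulldowns of tagged cytosolic ribosomes. They measure neither the mitochondrial ribosome nor its translation. Any RNA carried along without binding to tagged ribosomes is part of these values and was not measured apart.

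The libraries held 15.9 to 24.9 M counts, so that 3 counts correspond to 0.122 to 0.181 CPM, the count scaled to a common library total of 1 M. Markers of granule cells were present at every age: Prox1, the transcription factor that defines granule cell identity, averaged 480 to 592 CPM, and the 10 markers together gave 1580 to 3030 CPM over the libraries. Markers of other cells were present too and moved with age. Summed over 7 markers, newborn neurons gave 2310 to 2780 CPM at P5, 421 to 532 at P15 and 308 to 315 at P28. The 12 oligodendrocyte lineage markers gave 106 to 187 CPM at P5 and 427 to 748 at P15, and Mobp, a myelin gene, averaged 0.190 CPM at P5 and 159 at P15. Most of the 12 rose over that span, but some fell, as counted below. The 8 progenitor markers summed to 243 to 393 CPM at P5 and 49.5 to 70.4 at P15. In such bulk RNA, fewer cells of a type and less RNA per cell cannot be told apart.

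All 78 members were found once in the GENCODE annotation of the mouse genome build GRCm38 (mm10), all as protein-coding genes, spread over 17 chromosomes. A promoter window from RefSeq (GRCm38.p6, from 250 bases before to 50 after a transcription start) was found for 69 of them. Short motifs of factors known from the promoters of nuclear genes for mitochondrial proteins were searched on both strands: CCGGAAG of the ETS family, which includes GABP (nuclear respiratory factor NRF2), GCGCANGCG of NRF1, and AAGATGGCG of YY1, whose first letters AAG can be shared with the end of the ETS motif. The ETS motif stood in the windows of 26 of the 69 members (37.7%), against 17.9% of the 11815 symbols with a window that were tested in the counts and 9.93% of all 27025 symbols in the table. For NRF1 the numbers were 16 of 69 (23.2%), 14.1% and 7.03%. For YY1 they were 8 of 69 (11.6%), 3.11% and 1.64%. Any of these motifs was present in 42 members (60.9%) and in 30.7% of the tested symbols. The median GC content of the members' windows was 58.3%, between the 53.3% of all symbols and the 62.0% of those tested. These are descriptions of letters in a window, not of factor binding.

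The stretches of 150 bases just upstream of the RefSeq start are shown for 5 members that behaved differently with age and have no annotated exon base in the stretch. Capitals mark the motif letters, and each stretch is written 5′ to 3′ on the strand of the gene. Mrpl45, whose protein sits at the exit of the mitochondrial ribosome's tunnel, has NRF1 motifs starting 120 and 38 bases before the start (chr11:97315566-97315715, plus strand) and rose with age. Mrps22, a small-subunit protein specific to mitochondria, has an ETS motif starting 11 bases before the start (chr9:98601680-98601829, minus strand) and did not pass the test from P5 to P15. Mrpl52 has an ETS motif starting 47 bases before the start (chr14:54426759-54426908, plus strand) and fell. Mrps14 (chr1:160195065-160195214, plus strand) and Mrpl2 (chr17:46646079-46646228, plus strand) hold none of these letters in the stretch and rose.
Mrpl45: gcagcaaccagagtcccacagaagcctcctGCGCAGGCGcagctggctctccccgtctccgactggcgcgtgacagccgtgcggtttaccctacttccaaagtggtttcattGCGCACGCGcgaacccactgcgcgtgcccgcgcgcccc
Mrps22: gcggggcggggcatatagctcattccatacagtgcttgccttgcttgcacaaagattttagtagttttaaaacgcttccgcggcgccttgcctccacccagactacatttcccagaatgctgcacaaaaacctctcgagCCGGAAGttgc
Mrpl52: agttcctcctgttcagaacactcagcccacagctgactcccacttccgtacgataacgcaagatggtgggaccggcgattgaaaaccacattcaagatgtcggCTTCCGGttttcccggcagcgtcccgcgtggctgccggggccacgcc
Mrps14: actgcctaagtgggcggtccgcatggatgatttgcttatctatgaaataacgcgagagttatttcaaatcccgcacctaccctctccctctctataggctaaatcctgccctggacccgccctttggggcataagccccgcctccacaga
Mrpl2: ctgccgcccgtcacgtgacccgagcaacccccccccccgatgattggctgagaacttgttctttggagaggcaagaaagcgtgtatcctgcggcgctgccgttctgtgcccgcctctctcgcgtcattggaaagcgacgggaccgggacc

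Every member was measured well above the counting limit. The mean over the 6 ages ran from 2.99 CPM for Mrpl23 to 65.5 CPM for Mrpl3, with a median of 28.1 CPM over the 78 genes, and all of them passed the filter on low counts and were tested. Genes were compared with each other only per length, as CPM per kilobase of annotated exon. On that scale the median member stood at 12.1, against 4.03 over the 15210 tested genes with a length. Mrpl41, a large-subunit protein specific to mitochondria, was the highest at 48.4 CPM per kilobase. Mrpl12 and Mrpl10, which form the stalk that recruits translation factors, followed at 36.6 and 31.8. The 3 lowest were Mrpl33 at 2.51, Mrps10 at 1.5 and Mrpl23, a protein of the tunnel exit, at 0.613. The order was nearly the same at the first and the last age, with a Spearman rank correlation of 0.938 between the members' P5 and P28 levels per kilobase, which share gene lengths and any bias of the sequence. Exon length here is the union over annotated transcripts, so a gene with long unused exons is placed too low.

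Read assignment limits some members. Exons of 8 members overlap another gene on the same strand and those of 28 overlap a gene on the opposite strand, while neither the strand setting nor the handling of reads with several matches is known. In 37 members no stretch of 50 bases occurs in the annotated transcripts of another gene. In 8 members more than 10% of such stretches do: Mrpl27 (24.4%), Mrpl22 (22.4%), Mrps36 (17.3%), Mrps18b (14.6%), Mrps33 (13.3%), Mrpl23 (11.8%), Mrps25 (11.7%) and Mrpl41 (11.3%).

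The members spanned smaller ranges over age than most genes of these libraries. The ratio of the highest to the lowest age mean had a median of 1.37 over the members and 1.70 over all genes tested, and 57 of 78 stayed under 1.5. Mrps14 alone reached 2-fold (2.04), which is 1.28% of members against 37.8% of all genes tested. Counting noise raises this ratio in genes with few counts, and the genes were not matched by level. Across the 6 ages, 63 of 78 members passed the test for any difference between ages (edgeR's quasi-likelihood F test with Benjamini-Hochberg adjustment), and 79.7% of all genes tested did. The age of the highest mean was P28 for 32 members, P10 for 26, P15 for 8, P5 for 7, P21 for 4 and P7 for 1. The lowest mean fell at P5 for 36 members and at P7 for 25.

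Summed over the 78 genes, the level was 2050 ± 86.4 CPM at P5 (SD, n = 5) and 2060 ± 115 CPM at P7 (SD, n = 3). It was 2500 ± 47.3 CPM at P10 (SD, n = 3), with no overlap between the P10 libraries (2460 to 2550) and those of P5 (1980 to 2200) or P7 (1940 to 2170). The libraries then lay between 2330 and 2550 at P15, between 2360 and 2470 at P21 and between 2510 and 2590 at P28. On this scale the sum was thus lower at P5 and P7 and higher from P10 on. Within the later ages, every P28 library lay above every P21 library. With scaling by total counts the sum was 2040 to 2220 CPM at P5 and 1880 to 2000 at P7, without overlap. On that scale it was 2440 to 2540 at P10, 2300 to 2430 at P21 and 2470 to 2580 at P28. Large and small subunit genes kept their proportion, with a ratio of summed CPM between 2.23 and 2.33 in all 20 libraries.

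**Figure D1:**
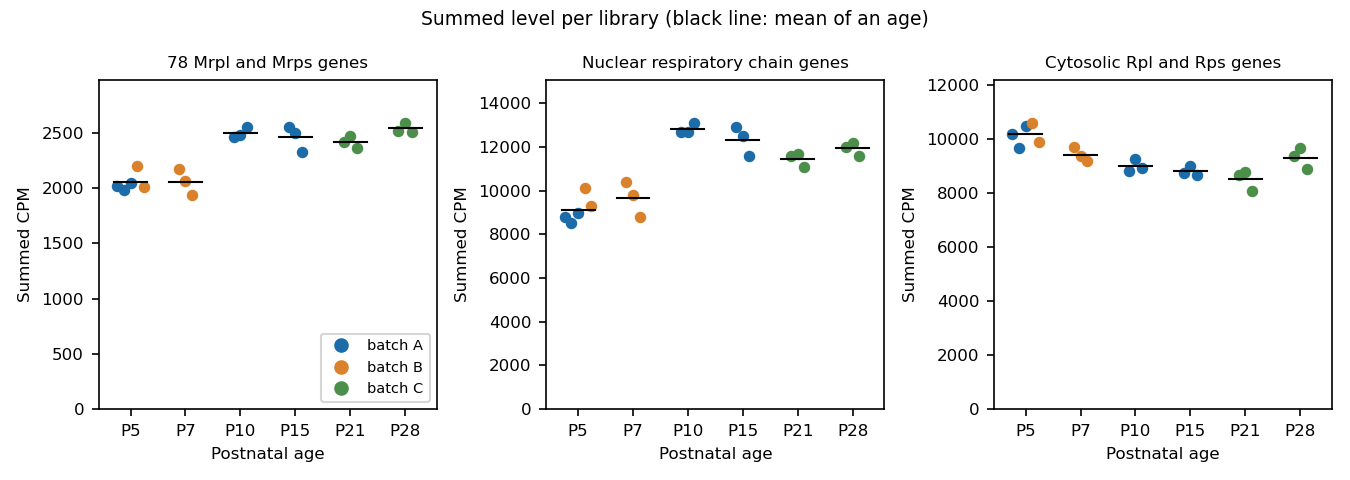
Summed CPM (vertical axis, from 0) in each library at each age for the 78 Mrpl and Mrps genes, the nuclear genes of the respiratory chain and the cytosolic ribosomal protein genes, with points colored by batch and a black line at the mean of an age. The Mrpl and Mrps sum lies at 1940 to 2200 CPM at P5 and P7 and at 2330 to 2590 CPM from P10 on, the respiratory chain sum is higher from P10 on too, and the mean cytosolic ribosomal sum is highest at P5.

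From P5 to P7, 1 member passed the test: Mrpl38, a large-subunit protein at the central protuberance, rose by 0.29 on the log2 scale (SE 0.07, adjusted p 0.009, edgeR's quasi-likelihood test with Benjamini-Hochberg adjustment). Its levels were 32.2, 33.5 and 30.5 CPM at P5 in batch A, 27.9 and 28.7 in those of batch B, and 34.4, 36.1 and 33.0 at P7. The P7 libraries lie above the P5 libraries of their own batch and overlap those of batch A. Over all genes tested, 6.15% were higher and 4.89% lower, against 1 and 0 of 78 members, and the members' median change was -0.03 against 0.01 for all genes. The change of Mrpl38 was 0.18 without the batch term and 0.18 with scaling by total counts. Its call was lost without P5 replicate 1 of batch B, with the batch B libraries alone and with scaling by total counts, and its adjusted p over 15 alternatives ran from 0.0066 to 0.12. Under total-count scaling the split was 0 members higher and 14 lower (median -0.14, all genes -0.10). The medians of the members and of all genes moved down together under that scaling, and that of the members was the lower with either one. Between batches B and A at P5 itself, 0 of 78 members passed in edgeR, the tool used for this contrast. An unadjusted p under 0.05 was found for 12 members (15.4%), against 24.0% of all genes. By adjusted p, 6.65% of all genes were higher and 3.42% lower in batch B.

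The step from P7 to P10 carried most of the change. Of 78 members, 43 rose and 0 fell, against 22.5% of all genes tested higher and 20.3% lower, and the median change was 0.35 on the log2 scale against -0.01 for all genes. P7 and P10 lie in different batches, and the fit links them only through the P5 libraries present in both. In the fit with the batch term the largest rise was that of Mrps33, a small-subunit protein specific to mitochondria, by 0.84 (SE 0.19, adjusted p 0.00098). Its CPM were 8.81, 8.88 and 8.91 at P7 and 11, 10.8 and 14.0 at P10, so the ages do not overlap, while the 5 P5 libraries spread from 7.0 to 12.3. Mrpl39, a large-subunit protein specific to mitochondria, rose by 0.74 (SE 0.16, adjusted p 0.00062). Mrps18c, a small-subunit protein with bacterial relatives, rose by 0.71 (SE 0.15, adjusted p 0.00051). Mrps18c shares 250 exon bases on its own strand with Gm43511. Of its 50-base stretches 9.62% occur in other genes, and of those of Mrps33 13.3%. Mrps34 followed at 0.67, Mrps31 at 0.64 and Mrps12, a protein of the decoding center, at 0.62. The size and order of these rises depend on the batch term. Without it, Mrps33 rose by 0.43 (adjusted p 0.018), Mrps34 by 0.43, Mrps31 by 0.42, and Mrpl39 and Mrps18c by 0.38 each, while Mrps12 rose by 0.64. Over 12 alternatives the adjusted p ran from 0.00022 to 0.018 for Mrps33, from 0.00012 to 0.015 for Mrpl39 and from 0.00014 to 0.0099 for Mrps18c. The count without the batch term was 50 higher and 0 lower.

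Inside batch A, P10 can be set against P5, a comparison added after the data were seen. This span is longer, and because batch A holds no P7 library it cannot place the change before or after P7. There 54 members rose, 3 fell and 21 did not pass, with a median change of 0.33 against -0.02 for all genes, of which 30.8% were higher and 30.6% lower. By total-count scaling the split was 39 higher and 5 lower, with a median of 0.19 against -0.15 for all genes. Mrps34 rose by 0.79, Mrpl2 by 0.66, Mrps12 by 0.65, Mrps26 and Mrps31 by 0.63 each, and Mrps30 by 0.62. The 3 that fell were Mrpl23 by 0.85 (SE 0.21, adjusted p 0.0011), Mrpl52 by 0.34 (SE 0.13, adjusted p 0.026) and Mrpl33 by 0.30 (SE 0.10, adjusted p 0.011). The call for Mrpl52 was lost without P5 replicate 1 or 3 of batch A or P10 replicate 2 or 3 (adjusted p over 15 alternatives 0.0033 to 0.10), and that for Mrpl33 without P5 replicate 3 of batch A or P10 replicate 2 (0.00065 to 0.06).

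**Figure D2:**
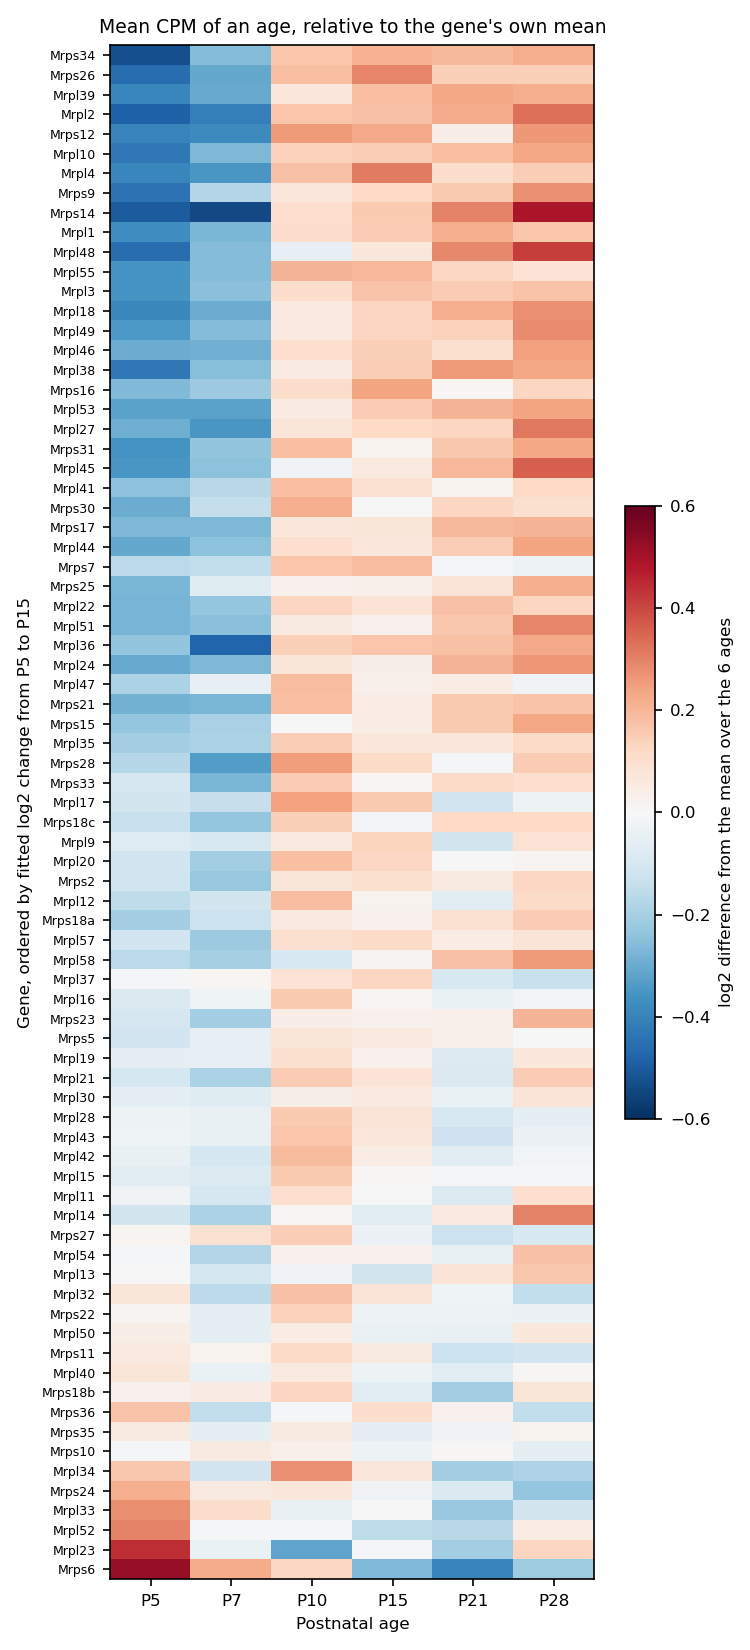
Mean CPM of each age (columns) for each of the 78 genes (rows), as the log2 difference from the gene's own mean over the 6 ages, with red above and blue below that mean. Genes are ordered by the fitted log2 change from P5 to P15, from 0.84 for Mrps34 at the top to -0.75 for Mrps6 at the bottom, and most rows turn from blue at P5 and P7 to red at P10.

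From P5 to P15, the longest span inside 1 batch, 46 members rose, 5 fell and 27 did not pass (edgeR's quasi-likelihood test with Benjamini-Hochberg adjustment). Of all genes tested, 31.6% were higher and 31.8% lower. The members' median change was 0.26 on the log2 scale and that of all genes -0.02. Because of the batch term, the 3 batch A libraries of P5 carry this change, and with the batch A libraries alone 47 rose and 5 fell. Scaling by total counts lowered the median of all genes to -0.14 and that of the members to 0.14, with 32 higher and 8 lower. The comparisons of P10, P15 and P28 with P5 share the P5 libraries and are not independent of each other.

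Among the 30 large-subunit proteins with bacterial relatives, 18 rose and 2 fell, with a median of 0.24. Mrpl2, which lies at the peptidyl transferase center, had 21.5, 18.7 and 20.1 CPM at P5 in batch A, 20.6 and 20.7 in batch B, and 35.1, 28.6 and 32.5 at P15. Every P15 library lies above every P5 library, and the change was 0.67 (SE 0.09, adjusted p 7.1e-07). Mrpl10 of the stalk had 38.2, 41.9 and 35.2 CPM in batch A at P5, 44.7 and 38.9 in batch B, and 61.7, 60.3 and 55.8 at P15. The ages do not overlap here either, with a change of 0.62 (SE 0.07, adjusted p 4e-08). Mrpl4, a protein that lines the exit tunnel, had 36.9, 30.5 and 31.9 CPM in batch A at P5, 28.1 and 27.6 in batch B, and 53.7, 46.5 and 51.5 at P15. It rose by 0.61 (SE 0.07, adjusted p 9.6e-08), again without overlap. Mrpl1, which forms the mobile L1 stalk, had 11.9, 15.3 and 13.4 CPM in batch A at P5, 14.6 and 15.3 in batch B, and 21, 21.9 and 18.2 at P15, a rise of 0.59 (SE 0.12, adjusted p 0.00011). Its ages did not overlap. The 10 that did not pass were Mrpl11, Mrpl13, Mrpl14, Mrpl15, Mrpl16, Mrpl21, Mrpl28, Mrpl30, Mrpl32 and Mrpl34, with changes from -0.18 (Mrpl34) to 0.16 (Mrpl16).

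Of the 21 large-subunit proteins listed as specific to mitochondria, 14 rose and 1 fell, with a median of 0.35. Mrpl39 had 17.5, 16.5 and 19.9 CPM in batch A at P5, 24.3 and 21.9 in batch B, and 32.4, 29.1 and 27.4 at P15. The P5 libraries of batch B stand above those of batch A for this gene, and all of them lie below P15. Its change was 0.72 (SE 0.11, adjusted p 2.1e-06). Mrpl48 rose by 0.58, Mrpl49 and Mrpl46 by 0.51 each, Mrpl38 by 0.51 and Mrpl53 by 0.49. Mrpl53 shares 695 of its 790 exon bases on its own strand with Gm42688. How many reads of Gm42688 count toward Mrpl53 was not tested. The 6 that did not pass were Mrpl40, Mrpl42, Mrpl43, Mrpl50, Mrpl54 and Mrpl58, the last a peptidyl-tRNA hydrolase built into the ribosome, with changes from -0.07 (Mrpl40) to 0.17 (Mrpl58).

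In the small subunit, 10 of the 16 proteins with bacterial relatives rose and 2 fell, with a median of 0.29. Mrps12 had 23.0, 21.8 and 23.2 CPM in batch A at P5, 22.8 and 22.0 in batch B, and 37.5, 35.3 and 32.3 at P15, a rise of 0.63 (SE 0.09, adjusted p 1.3e-06). The P5 libraries lie close together and well below those of P15. Mrps9 had 21.9, 20.5 and 22.4 CPM in batch A at P5, 25.5 and 20.9 in batch B, and 34.3, 34.2 and 30.2 at P15, a rise of 0.60 (SE 0.09, adjusted p 1.6e-06) with no overlap. Mrps14 had 18.9, 18.3 and 21.1 CPM in batch A at P5, 18.2 and 16.6 in batch B, and 33.3, 29.1 and 25.6 at P15, a rise of 0.59 (SE 0.09, adjusted p 4.3e-06). The lowest P15 library of Mrps14 still lies above the highest P5 library. Mrps5, Mrps10, Mrps11 and Mrps28 did not pass, with changes from -0.11 (Mrps10) to 0.28 (Mrps28).

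The 10 small-subunit proteins listed as specific to mitochondria hold the largest rise, that of Mrps34. Of the 10, 4 rose, 0 fell and 6 did not pass, with a median of 0.22. Mrps34 had 22.6, 24.0 and 25.0 CPM in batch A at P5, 28.5 and 28 in batch B, and 46.1, 43.1 and 38.6 at P15. The ages do not overlap, and the change was 0.84 (SE 0.09, adjusted p 2.6e-08), 1.79-fold. Mrps34 (chr17:24895116-24897502, plus strand) shares 763 exon bases with Nme3 on its own strand and 1309 with Mapk8ip3 on the other. Nme3 was listed at 0 in every library, and Mapk8ip3, a kinesin adaptor present at 268 CPM at P5 and 404 at P15, rose by 0.66 (SE 0.05, adjusted p 1.1e-10). How many reads of these neighbors count toward Mrps34 was not tested. Mrps26 (chr2:130563742-130568695, plus strand), which shares 8 exon bases with a transcript on the other strand, had 43.4, 44.1 and 45.7 CPM in batch A at P5, 46.2 and 42.7 in batch B, and 73.8, 79.1 and 71.0 at P15. Its P5 libraries lie close together, and it rose by 0.75 (SE 0.06, adjusted p 7.9e-11), 1.68-fold. Mrps25 and Mrps31 also rose, by 0.37 and 0.47. Mrps25 shares 4590 exon bases with Nr2c2 on the other strand, and 11.7% of its 50-base stretches occur elsewhere. Mrps18b, Mrps22, Mrps23, Mrps27, Mrps33 and Mrps35 did not pass, with changes from -0.10 (Mrps35) to 0.28 (Mrps33), nor did Mrps36 outside the ribosome (-0.07).

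**Figure D3:**
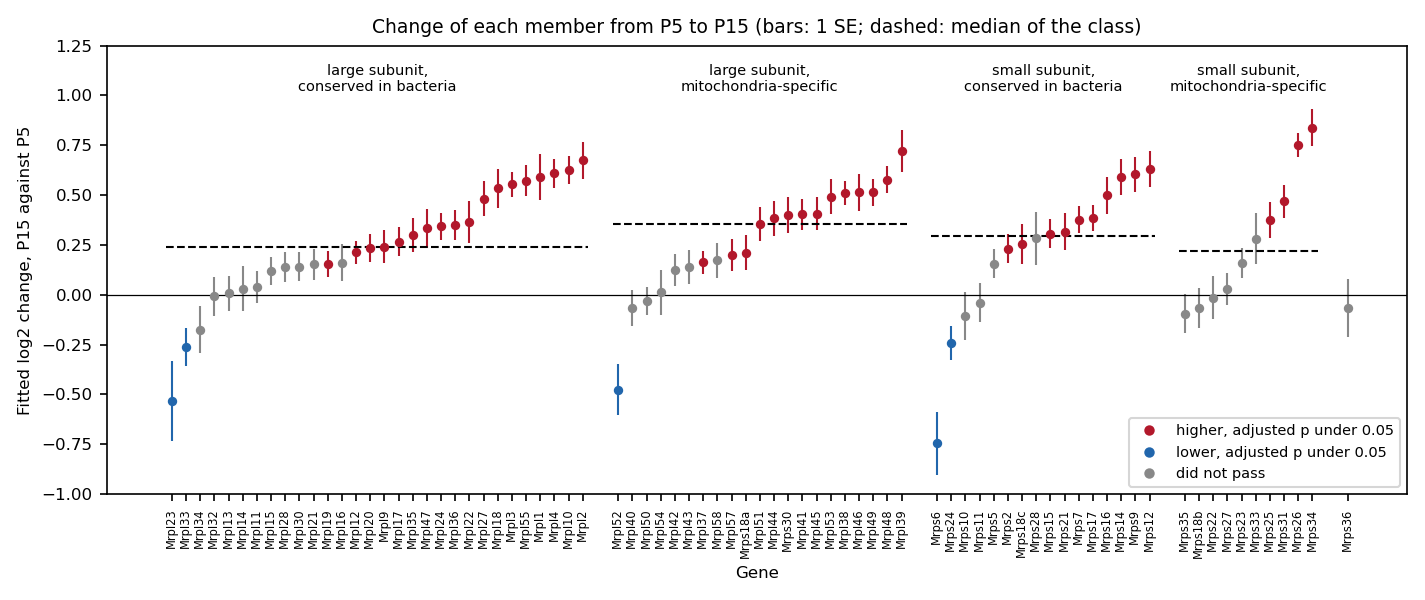
Fitted log2 change from P5 to P15 (vertical axis) of each of the 78 genes (horizontal axis). Genes are grouped by subunit and by whether the protein is listed as conserved in bacteria or as specific to mitochondria. Bars are 1 SE, with red for the 46 higher, blue for the 5 lower and gray for the 27 that did not pass. A dashed line marks each class median. The class medians lie between 0.22 and 0.35, and the blue points belong to Mrps6, Mrps24, Mrpl23, Mrpl33 and Mrpl52.

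The changes were also counted by promoter motif. Of the 26 members with the ETS motif, 15 rose and 2 fell (median 0.26), and of the 43 with a window and no such motif, 27 rose and 3 fell (median 0.30). With the NRF1 motif 12 of 16 rose and 0 fell (median 0.29), and without it 30 of 53 rose and 5 fell (median 0.26). With the YY1 motif 4 of 8 rose and 1 fell (median 0.14), against 38 and 4 of 61 without it (median 0.31). No test of these differences was run.

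Against the majority, 5 members fell from P5 to P15. Mrps6, a small-subunit protein with bacterial relatives, had 21.4, 20.3 and 27.1 CPM in batch A at P5, 27.4 and 21.7 in batch B, and 15, 12.6 and 13.4 at P15. All 3 P15 libraries lie below all 5 of P5, and it fell by 0.75 (SE 0.16, adjusted p 0.00041). Mrps6 (chr16:92058270-92112227, plus strand) shares 464 exon bases on its own strand with Slc5a3, which encodes a myo-inositol transporter, and with an unnamed transcript. Slc5a3 fell by 0.70 from P5 to P15 (SE 0.12, adjusted p 1.3e-05) but was higher at P28 than at P5 by 0.48 (SE 0.11, adjusted p 0.00044), where Mrps6 was lower by 0.69. Mrpl52, a large-subunit protein specific to mitochondria, had 16.3, 16 and 16.4 CPM in batch A at P5, 17.4 and 14.0 in batch B, and 14.0, 11 and 10.0 at P15. The highest P15 library meets the lowest P5 library, and the gene fell by 0.48 (SE 0.13, adjusted p 0.0024). It has no overlapping gene and no shared stretch of 50 bases.

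The calls for the other 3 falls were lost on leaving out certain single libraries. Mrpl23 had 4.89, 4.28 and 3.61 CPM in batch A at P5, 4.25 and 3.01 in batch B, and 3.14, 2.79 and 2.89 at P15. The lowest P5 library lies within the P15 range, and the fall of 0.53 (SE 0.20, adjusted p 0.022) did not pass without P5 replicate 1 of batch A or P15 replicate 2 or 3 (adjusted p over 15 alternatives 0.0073 to 0.10). This is the member with the fewest counts, and it has a listed pseudogene copy, Mrpl23-ps1. Mrpl33 had 21, 20.9 and 23.5 CPM in batch A at P5, 24.6 and 20.7 in batch B, and 17.2, 18.4 and 18.8 at P15, with no overlap. Its fall of 0.26 (SE 0.10, adjusted p 0.020) did not pass without P5 replicate 3 of batch A or P15 replicate 1 (0.0016 to 0.10). Mrps24, of the mRNA entry site of the small subunit, had 23.1, 24.0 and 26.0 CPM in batch A at P5, 24.1 and 24.2 in batch B, and 22.0, 20.3 and 19.4 at P15. Its ages do not overlap either, and its fall of 0.24 (SE 0.09, adjusted p 0.015) did not pass without P5 replicate 3 of batch A or P15 replicate 3 (0.00032 to 0.077). Mrps24 shares 226 exon bases on its own strand with Urgcp. Urgcp rose by 0.61 from P5 to P15 (SE 0.06) and was higher at P28 than at P5 by 0.84 (SE 0.06). How many of its reads count toward Mrps24 was not tested.

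**Figure D4:**
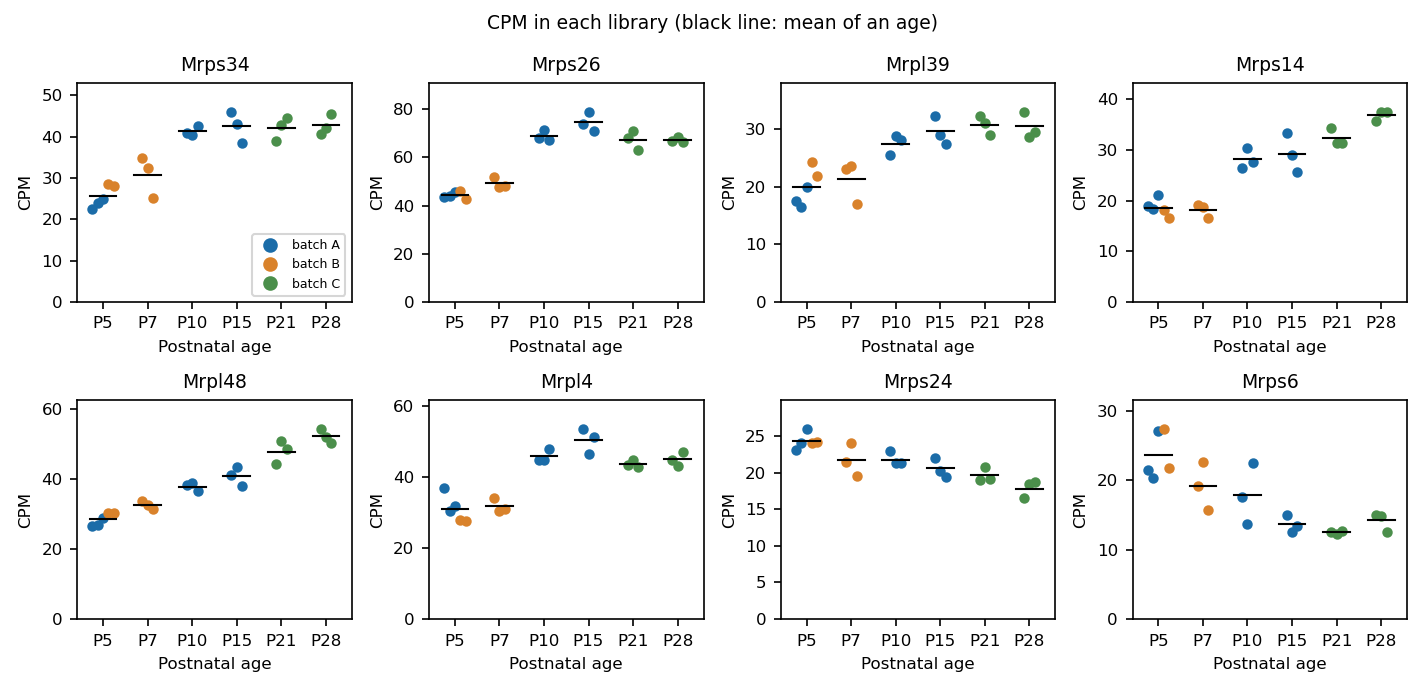
CPM (vertical axis, from 0) in each library at each age for 8 members, with points colored by batch and a black line at the mean of an age. Mrps34, Mrps26, Mrpl39 and Mrps14 step up by P10, Mrpl48 climbs to 50.4 to 54.4 CPM at P28, Mrpl4 is highest at P15, and Mrps24 and Mrps6 are highest at P5.

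After P10 the members changed little. From P10 to P15, within batch A, 0 of 78 passed in edgeR and 0 in DESeq2, and the median change was -0.03. By adjusted p, 1.84% of all genes were higher and 2.52% lower. In edgeR 5 members (6.41%) had an unadjusted p under 0.05, against 20.4% of all genes. Without P10 replicate 2, 1 member was lower. From P15 to P21, across batches A and C, 1 member was higher and 5 were lower, against 14.0% and 14.8% of all genes, with a median of -0.02. Mrpl48, a large-subunit protein specific to mitochondria, was higher by 0.23 (SE 0.07, adjusted p 0.011). Lower were Mrpl17 (-0.28, SE 0.07, adjusted p 0.0058), Mrpl9 (-0.24), Mrpl37 (-0.22), Mrpl4 (-0.21) and Mrps7 (-0.19). Mrpl17 had 38.6, 36.5 and 35.4 CPM at P15 and 31.4, 30.8 and 28.9 at P21, without overlap, and it and Mrpl37 kept their calls under all 12 alternatives run. The others lost theirs without 1 library: Mrpl48 without P15 replicate 3 or P21 replicate 2 (adjusted p over its alternatives 0.0061 to 0.088), and Mrpl9 without any P15 replicate or without P21 replicate 1 or 3 (0.016 to 0.13). Mrpl4 lost its call without P15 replicate 1 or 3 or P21 replicate 1 or 3, and with no batch term (0.015 to 0.15), and Mrps7 without P15 replicate 1 or any P21 replicate (0.0078 to 0.12). Without P21 replicate 3 the count was 3, and by total-count scaling it was 1 higher and 10 lower. From P21 to P28, within batch C, 0 of 78 passed in edgeR and 0 in DESeq2. In edgeR 12 members (15.4%) had an unadjusted p under 0.05, against 12.7% of all genes. The median was 0.06, and by adjusted p 0.065% of all genes were higher and 0.189% lower.

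From P5 to P28, with age and batch not separable, 49 members were higher and 5 lower, against 35.2% and 36.4% of all genes, with a median change of 0.34 against -0.01. By total-count scaling 40 were higher and 10 lower, with a median of 0.22 against -0.14. Mrpl48 and Mrps14 had the largest differences, 0.93 each (SE 0.07, adjusted p 8.2e-12, and SE 0.09, adjusted p 2e-09). Mrpl48 had 26.7, 26.9 and 28.8 CPM in batch A at P5 and 30.3 and 30.3 in batch B. Its P7 libraries had 31.5 to 33.9 CPM, those of P10 36.7 to 38.8, those of P15 38.1 to 43.5, those of P21 44.2 to 51.0, and the P28 libraries 54.4, 52.1 and 50.4. Its mean was higher at each age than at the age before, unlike the step seen in the sum. Mrpl48 (chr7:100545751-100608301, minus strand) shares 708 exon bases with Rab6a on the other strand, which did not pass from P5 to P28 (0.08, SE 0.07, adjusted p 0.30), and 5.73% of its 50-base stretches occur elsewhere, a pseudogene among them. Mrps14 (chr1:160195215-160202170, plus strand) stood at 18.9, 18.3 and 21.1 CPM in batch A at P5, 18.2 and 16.6 in batch B, and 35.8, 37.6 and 37.5 at P28, and has no overlapping gene. Mrps34 was higher by 0.84, Mrpl2 by 0.83, and Mrpl39 and Mrps9 by 0.76 each.

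The 5 lower at P28 than at P5 were Mrps6 (-0.69, SE 0.16, adjusted p 0.00069), Mrps24 (-0.45, SE 0.09, adjusted p 6.1e-05), Mrpl34 (-0.42), Mrpl33 (-0.37) and Mrpl32 (-0.24). Mrps6 had 15, 14.9 and 12.6 CPM at P28, Mrps24 16.5, 18.4 and 18.7, and neither overlaps P5. Mrpl34, a protein with bacterial relatives, had 17.0, 16 and 17.7 CPM in batch A at P5, 17.3 and 12.1 in batch B, and 12.2, 13.3 and 12.4 at P28. The lowest P5 library of Mrpl34 lies under the P28 libraries. Mrpl32, whose maturation needs a mitochondrial inner membrane protease, lost its call without P5 replicate 2 or 3 of batch A, without P28 replicate 2 or 3, and with no filter on low counts (adjusted p over 15 alternatives 0.0028 to 0.15), and its change was -0.36 with total counts.

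Other proteins of the mitochondrial ribosome carry symbols outside the Mrpl and Mrps pattern. Of 5 such genes, 2 rose from P5 to P15 and 1 fell: Aurkaip1 by 0.60 (SE 0.06, adjusted p 1.5e-08) and Dap3, a GTP-binding small-subunit protein, by 0.40 (SE 0.08, adjusted p 9.2e-05), while Chchd1 fell by 0.47 (SE 0.13, adjusted p 0.0029). Ptcd3 and Gadd45gip1 did not pass.

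Genes that act on the mitochondrial ribosome were counted over the same span from P5 to P15, in which 31.6% of all genes tested were higher and 31.8% lower. Of 26 genes for its assembly and for modification of its RNA, 7 rose and 2 fell, with a median of -0.01. Rpusd3, a mitochondrial pseudouridine synthase, rose by 1.07 (SE 0.10, adjusted p 2.8e-09), Mtg1, an assembly GTPase, by 0.60, and Mrm3, an rRNA methyltransferase, by 0.55, while Rcc1l fell by 0.59. Of 18 translation factors and related enzymes, 6 rose and 3 fell, with a median of 0.19, and those of smallest p were Gfm1, the elongation factor for translocation (0.45), Mtif3, an initiation factor (0.48), Tsfm, which recharges the elongation factor that delivers tRNA (0.39), and Taco1, the translational activator of the oxidase subunit Co1 (0.47). Of 17 mitochondrial aminoacyl-tRNA synthetases, 3 rose and 4 fell, with a median of -0.02. Lars2 rose by 1.81 (SE 0.21, adjusted p 3.1e-06) and Fars2 by 0.54, while Hars2 and Cars2 fell by 0.48 each. Overlapping genes and shared stretches were looked up for the Mrpl and Mrps genes only. Read assignment to Lars2 and the other genes of these lists was therefore not checked. Of 8 genes for transcription and RNA stability of mitochondrial DNA, 4 rose and 0 fell, with a median of 0.26: Tfam, the packaging and transcription factor, by 0.42, Tefm, the elongation factor, by 0.60, Mterf1a by 0.95 and Lrpprc, an RNA stabilizer, by 0.19.

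The partners of the mitochondrial ribosome's products moved with the members. Of 80 tested nuclear genes of the respiratory chain and ATP synthase, 72 rose and 0 fell from P5 to P15 with a median of 0.47, and 74 rose and 1 fell from P7 to P10 with a median of 0.56. Cytosolic ribosomal protein genes went the other way over the longer span, with 1 of 79 higher and 52 lower from P5 to P15 (median -0.22), while from P7 to P10, 3 were higher and 7 lower (median -0.05). Many cytosolic ribosomal protein genes have processed copies, so their values are uncertain. Under total-count scaling from P5 to P15 the respiratory chain genes split 66 to 1 and the cytosolic ones 0 to 67. Of 13 mRNAs of mitochondrial DNA, 7 passed the filter and 6 were at or near 0, such as mt-Co2 and mt-Co3, so that their counts are uncertain. Of the 7, mt-Nd2, mt-Nd5 and mt-Nd6 rose from P5 to P15, and mt-Co1 and mt-Nd1 fell. These mRNAs differed between batches at P5, where 6 of 7 were lower in batch B with a median of -1.04. They are translated inside mitochondria, and how they came into pulldowns of cytosolic ribosomes was not tested.

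**Figure D5:**
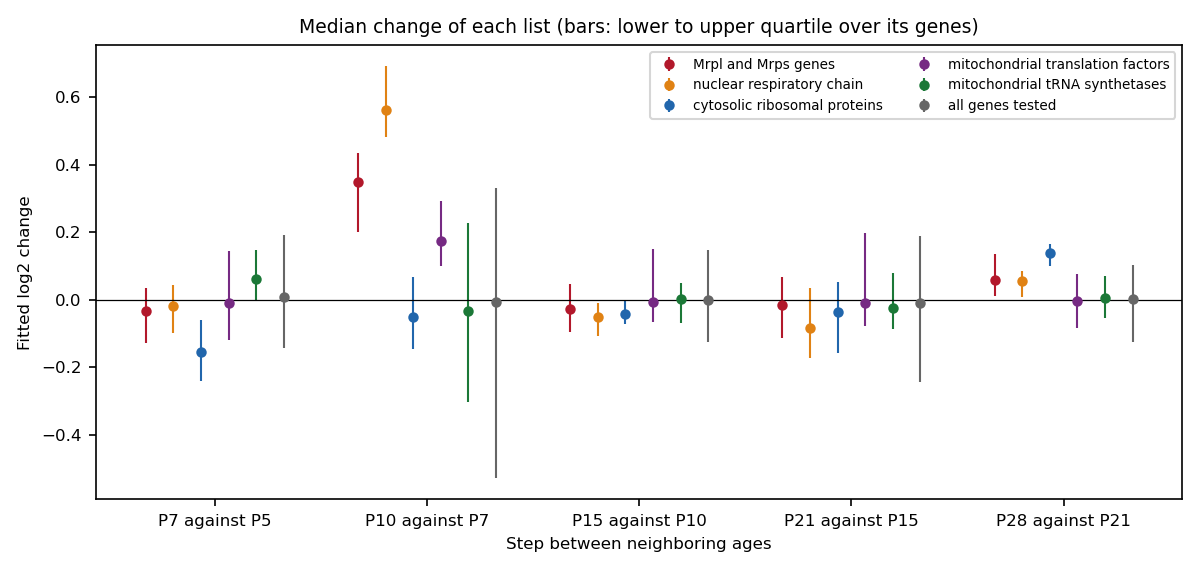
Median fitted log2 change (vertical axis) over the tested genes of 6 lists in each step between neighboring ages (horizontal axis), with bars from the lower to the upper quartile over the genes of the list. The Mrpl and Mrps genes have medians of 0.35 from P7 to P10 and between -0.03 and 0.06 in the other steps, and the respiratory chain genes reach 0.56 from P7 to P10.

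Markers of other cells changed over the same spans. From P7 to P10, 7 of 8 progenitor markers, 5 of 7 newborn neuron markers and 8 of 10 endothelial and mural markers fell, and 3 of 12 oligodendrocyte lineage markers rose and 4 fell. In that step 1 of 9 astrocyte markers rose and 4 fell, with a median of -0.67, and 3 of 10 interneuron markers rose and 3 fell. Of 8 microglia and 8 CA pyramidal markers 0 passed in edgeR, and of 10 granule cell markers 7 rose and 1 fell. From P5 to P15, 8 of 8, 6 of 7 and 8 of 10 of these progenitor, newborn neuron and endothelial markers fell, and 2 endothelial markers rose. Of 12 oligodendrocyte lineage markers 7 rose and 4 fell, of 10 interneuron markers 6 rose and 3 fell, of 9 astrocyte markers 4 rose and 1 fell, and of 8 microglia markers 5 rose and 0 fell. Of 8 CA pyramidal markers 3 rose and 1 fell, and of 10 granule cell markers 6 rose and 1 fell. The summed astrocyte markers ran from 656 to 707 CPM at P5 and from 1240 to 1540 at P15, interneuron markers from 187 to 222 and 286 to 349, microglia markers from 33.0 to 39.3 and 42.3 to 59.2, endothelial and mural markers from 87.4 to 156 and 44.7 to 61.1, and CA pyramidal markers from 358 to 583 and 349 to 521. The myelin gene Mog averaged 0.0212 CPM at P5, under the level of 3 counts. Their part in the changes of the Mrpl and Mrps genes was not tested.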

How the data were processed

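RNA bound to HA-tagged ribosomes was sequenced as stranded, poly-A selected libraries, per the labels' protocols. The authors deposited 1 table of raw counts per gene and library. The listed build is mm10 and the listed tools are STAR 2.7.5b, SAMtools 1.10 and featureCounts, per the submitters' processing notes. The annotation used and the strand setting were not given in the sources used here.

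The test was edgeR's (4.0.16, R 4.3.3) on the counts as deposited: trimmed-mean (TMM) scaling, the default filter by age (15373 genes of 32245 left, all 78 members among them), robust quasi-likelihood fits with a mean per age and a term for batch B, 13 residual degrees of freedom, and Benjamini-Hochberg adjustment over all genes tested at 0.05. The biological coefficient of variation was 8.46%. CPM are relative to TMM-scaled totals, without a batch correction. DESeq2 1.42.0 was an alternative. The code was checked on simulated data. Replicate numbers were not used as a block in the main fit, and whether they pair libraries is not known.

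The members and lists were chosen with earlier results of these data known. Changes are given for the up to 6 largest rises and falls of a comparison among members past the threshold (10 for P15 against P5). SE and adjusted p are printed for part of them. For P15 against P5, changes of further members are given by class, including some that did not pass. Those further members were not part of the check of named members under the alternatives for that comparison. Levels are given for the 3 highest and lowest members per length. In the other lists, the up to 4 genes of smallest p are named. The comparison of P10 with P5 was added after seeing the data. Gene positions and exon lengths come from GENCODE vM21, promoter windows from RefSeq. Protein sequences were not used here.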

Additional observations from a re-analysis of the deposited data

Results flagged for a closer look

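At P5, the 1 age with more than 3 libraries, each member was searched for a library far from the other 4. In 3 of 78 members the gap to the nearest library exceeded 0.71 of the range, Dixon's critical value; chance flags about 1 in 20. Mrpl9 had 44.3 CPM in P5 replicate 1 of batch B, against 37.9 to 39.7 in the others. Mrps23 had 35.7 CPM in the same library, against 29.1 to 30.9. Mrps11 had 25.4 CPM in P5 replicate 2 of batch A, against 21.8 to 22.8.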

How the results depend on the processing

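The counts of members from P10 to P15 and from P21 to P28 were 0 under each alternative tried, except 1 without P10 replicate 2. The counts for P10 against P7, and for P10, P15 and P28 against P5, stayed within 1.5 times under other size factors, total counts, no filter, DESeq2 and no batch term. So did P10 and P15 against P5 in batch A alone, and P28 against P5 without the P5 libraries of batch B. From P5 to P7 the count of 1 became 14 with total counts, 5 with no batch term, 0 with the batch B libraries alone and 2 with DESeq2, and from P15 to P21 the count of 6 became 11 with total counts. Causes were not tested. Leaving out 1 library at a time gave 0 to 2 for P7 against P5, 37 to 46 for P10 against P7, 48 to 57 for P10 against P5, 0 to 1 for P15 against P10, 43 to 52 for P15 against P5, 3 to 7 for P21 against P15, 0 in every fit for P28 against P21, and 48 to 55 for P28 against P5. Under a replicate block the counts were 51 for P15 against P5, 55 for P28 against P5, 55 for P10 against P5, 44 for P10 against P7, 1 for P7 against P5, 6 for P21 against P15, 0 for the other steps and 62 for any age. Same-numbered libraries of different ages had correlated deviations over 0.1 in 7 of 55 pairs (-0.256 to 0.248). Libraries with different numbers had them in 20 of 110 pairs (-0.256 to 0.317). The P5 libraries of the same number in batches A and B were not compared with each other. Deviations were taken within groups of few libraries, so this check cannot settle whether the numbers pair libraries. Named members kept their direction in every alternative, with 647 calls kept and 37 lost. Depth limits Mrpl23 most, at 2.99 CPM on average. In bulk pulldowns the share of each cell type is unknown, and P21 and P28 share no batch with other ages.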
